A study of Homo sapiens with 6 samples.

Results

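Interferon-stimulated genes (ISGs) were followed in 2 established lines derived from human ovarian tumours, Hey and SKOV3. Each line was sampled as untreated parental cells, as drug-induced polyploid giant cancer cells (PGCCs) and as the daughter cells that arose afterwards. The 42 genes were taken by symbol from the table of transcript abundances. All 42 were among its 59008 rows, and 36 of them averaged 1 TPM (transcripts per 1000000) or more over the 6 libraries. That level was reached by 14988 rows in all. RNA of 6 conditions was sequenced as 1 library each, so no value has an error and the other cell line is the only repeat of a comparison.

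Parental cells of both lines were untreated. PGCCs had received 500 nM paclitaxel, a drug that stabilizes microtubules, for 16 hours and had then recovered for 3 days by the treatment label. The title of the SKOV3 PGCC library gives day 7, whereas its treatment label and the study's methods give 3 days. Daughter cells had received the same dose for 16 hours and had recovered for 30 days. The daughter library of each line was titled as clone 1, so it stands for 1 clone. Hey cells were grown in MEM Eagle and SKOV3 cells in RPMI-1640, so the line and the medium cannot be told apart.

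Interferons are secreted proteins that bind receptors of the same or neighbouring cells. Type I and type III interferons act through the kinases JAK1 and TYK2 on STAT2, which joins IRF9 in the factor ISGF3. ISGF3 binds the interferon-stimulated response element (ISRE) near target genes, while the gamma-activated site (GAS) serves mainly the response to interferon gamma. The products block viral entry, translation or replication, sense foreign RNA, or dampen the response again.

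Promoter windows of the ISGs were searched for the ISRE letters (GAAA, then 2 bases of any kind, then GAAA) and the GAS letters TTCNNNGAA on both strands. Each RefSeq window (GRCh38.p14) runs from 250 bases before to 50 bases after a gene's start. A window was given for 33 of the 42 genes, and 21 of these (63.6%) held the ISRE letters, against 3.57% of all 35116 windows. The GAS letters stood in 10 of the 33 (30.3%), against 7.66% of all windows. In 4 genes (BST2, EPSTI1, IFI27 and IFITM1) an ISRE and a GAS match shared bases. Stretches of 60 bases are given here for genes described below, 5′ to 3′ on the gene's strand, with ISRE letters of either orientation in capitals.
ISG15, chr1:1013359-1013418, plus strand: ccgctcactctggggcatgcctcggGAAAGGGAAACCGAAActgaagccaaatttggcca
IFI27, chr14:94110603-94110662, plus strand: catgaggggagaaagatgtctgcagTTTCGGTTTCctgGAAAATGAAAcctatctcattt
IFIT1, chr10:89392482-89392541, plus strand: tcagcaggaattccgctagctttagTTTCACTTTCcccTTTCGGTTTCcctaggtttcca
IFIT3, chr10:89327850-89327909, plus strand: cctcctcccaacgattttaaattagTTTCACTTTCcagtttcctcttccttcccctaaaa
IFI44, chr1:78649729-78649788, plus strand: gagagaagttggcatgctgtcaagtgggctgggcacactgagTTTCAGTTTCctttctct
IFI44L, chr1:78620259-78620318, plus strand: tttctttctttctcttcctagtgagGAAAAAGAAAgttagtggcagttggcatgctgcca
IFITM3, chr11:320878-320937, minus strand: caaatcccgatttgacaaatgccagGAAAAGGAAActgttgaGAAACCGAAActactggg
IFIH1, chr2:162318685-162318744, minus strand: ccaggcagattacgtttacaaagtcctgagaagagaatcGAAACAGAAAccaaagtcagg
HERC5, chr4:88456969-88457028, plus strand: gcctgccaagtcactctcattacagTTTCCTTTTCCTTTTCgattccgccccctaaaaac
PARP14, chr3:122680779-122680838, plus strand: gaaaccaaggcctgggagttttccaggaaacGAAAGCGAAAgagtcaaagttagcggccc
In ISG15 and HERC5 the capitals hold a pair of overlapping matches, while IFI27, IFIT1 and IFITM3 carry a pair of separate ones. A match describes the letters in the window and is not evidence of binding. Of the 36 genes above the level filter, 9 had a window without the ISRE letters: IFI35, OAS1, STAT2, IRF1, IRF9, HERC6, SAMD9L, PARP9 and UBE2L6.

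The libraries themselves differed. The mitochondrial share of TPM ran from 2.64% in Hey parental cells to 14.8% in SKOV3 daughter cells, and between 19920 and 25370 rows were above 0. The difference between SKOV3 PGCCs and SKOV3 parental cells followed the GC content of genes across all rows (rank correlation 0.72 over genes, which are not independent). It was -0.45 for SKOV3 daughter cells against PGCCs and between -0.06 and 0.15 for the other 5 comparisons. Scaling also moved the median over all rows. SKOV3 parental against Hey parental cells had a median of 0.29 on the log2 scale, which became 0.01 after median-ratio scaling, so list medians are given beside those of all rows. TPM is a share of the RNA in a library, so in these bulk samples fewer expressing cells and less RNA per cell cannot be told apart, nor can amounts per giant cell be read.

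The summed TPM of the 42 genes stood at 710 in parental cells of Hey, at 855 in its PGCCs and at 652 in its daughter cells. The corresponding sums in SKOV3 were 1247, 2366 and 1405. The IFITM genes, which encode membrane proteins that hinder viral entry, took 433, 471 and 358 TPM of these sums in Hey and 850, 1873 and 653 TPM in SKOV3. The median log2(TPM + 1) of the 36 genes gave another order in SKOV3, where parental cells had 3.19, PGCCs 3.25 and daughter cells 4.21. The same medians in Hey were 2.68, 3.23 and 2.56.

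**Figure D1:**
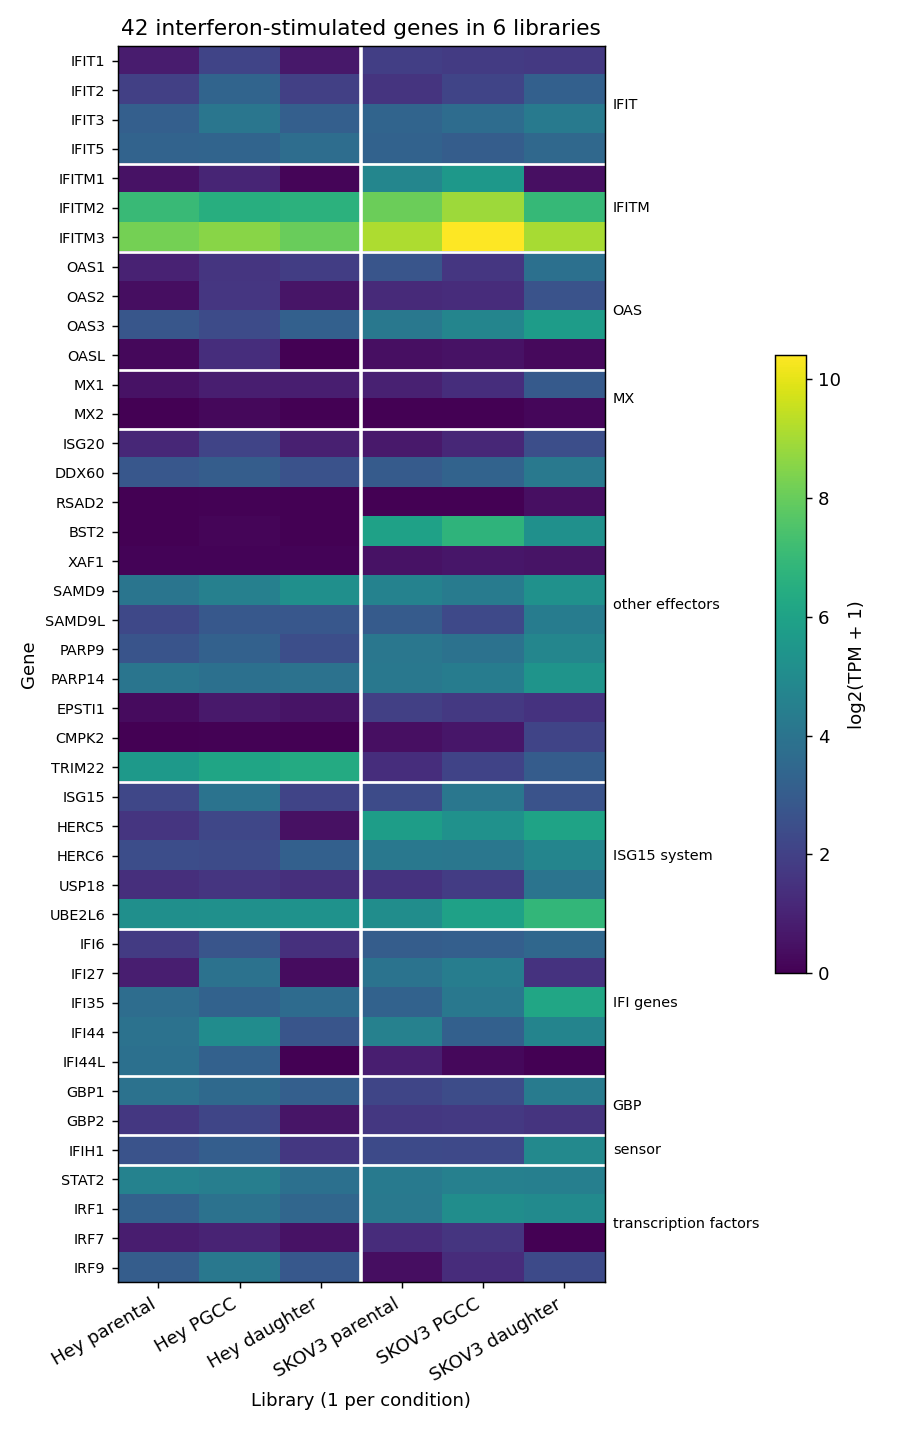
Levels of the interferon-stimulated genes in the 6 libraries, as log2(TPM + 1), 1 library per condition. The SKOV3 daughter library holds the highest level of 19 of the 36 genes above the filter, and IFITM2 and IFITM3 are high in every library. MX1, among the 19, passed the filter through the SKOV3 daughter library alone.

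The comparison of PGCCs with parental cells asked which ISGs differed after paclitaxel and, by the treatment label, 3 days of recovery. The title of the SKOV3 PGCC library gives day 7, so the lines may differ in time. All differences are of log2(TPM + 1), and a gene was called at 2-fold, a difference of 1 or more in size. In Hey, 7 of the 36 genes were higher in PGCCs, against 7.67% of all rows, and 0 were lower, against 5.22% of all rows. The 7 genes were IFI27, ISG15, IFIT2, IFIT1, OAS2, IFI44 and IRF9. The median difference of the 36 genes was 0.47, while the median of all rows was 0, and 28 of the 36 were above 0. Quantile normalization gave a median of 0.28.

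IFI27, which encodes a small mitochondrial protein, had the widest difference in Hey. Its level was 0.81 TPM in parental cells and 14.3 TPM in PGCCs, a difference of 3.08. In SKOV3 it was already at 14.8 TPM in parental cells and reached 20.3 TPM in PGCCs, a difference of 0.43. ISG15 encodes a ubiquitin-like modifier that is attached to other proteins. It stood at 3.67 TPM in Hey parental cells and 14.8 TPM in Hey PGCCs, and at 4.19 and 16.7 TPM in the SKOV3 pair. The differences were 1.76 in Hey and 1.77 in SKOV3. With the trend over GC content and length removed they were 1.86 and 0.85, so the SKOV3 call was lost.

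The IFIT proteins bind foreign RNA and block its translation. IFIT1 was at 0.74 TPM in Hey parental cells and 3.35 TPM in Hey PGCCs (difference 1.32), and at 2.83 and 2.5 TPM in SKOV3 (-0.13). IFIT2 went from 2.88 to 9.16 TPM in Hey (1.39) and from 1.98 to 3.41 TPM in SKOV3 (0.57). IFIT3 missed the threshold in Hey with 7.88 and 15.8 TPM (0.92). IFIT5 showed 8.92 and 9.32 TPM in Hey. The 4 genes lie next to each other, and their reads can be shared where their sequences are alike.

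OAS enzymes make the second messenger that activates RNase L. OAS2 was at 0.29 TPM in Hey parental cells and 2.13 TPM in PGCCs, a difference of 1.27, and at 1.34 and 1.5 TPM in SKOV3. OAS1 was lower in SKOV3 PGCCs, with 5.69 TPM in parental cells and 2.10 TPM in PGCCs, a difference of -1.11. In Hey it was 0.97 and 2.01 TPM. IRF9, the DNA-binding subunit of ISGF3, was at 7.46 TPM in Hey parental cells and 17 TPM in PGCCs, a difference of 1.09. In SKOV3 it was at 0.33 and 1.49 TPM, a difference of 0.91. STAT2, its partner, differed by -0.15 in Hey and 0.29 in SKOV3.

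In SKOV3, 2 of the 36 genes were higher in PGCCs, against 9.94% of all rows, and 2 were lower, against 4.96% of all rows. Both shares were close to or under those of all rows. IFITM3 was at 558 TPM in SKOV3 parental cells and 1352 TPM in PGCCs, a difference of 1.27, and at 301 and 379 TPM in Hey. IFI44 was higher in Hey PGCCs (14.3 and 32.5 TPM, difference 1.13) and lower in SKOV3 PGCCs (22.6 and 8.18 TPM, difference -1.36). With the trend over GC content and length removed, the SKOV3 PGCC differences of ISG15, IFITM3 and IFI44 were 0.85, 0.53 and -0.80, all inside the threshold, whereas OAS1 gave -1.20. The part of GC content in the SKOV3 values was not tested.

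**Figure D2:**
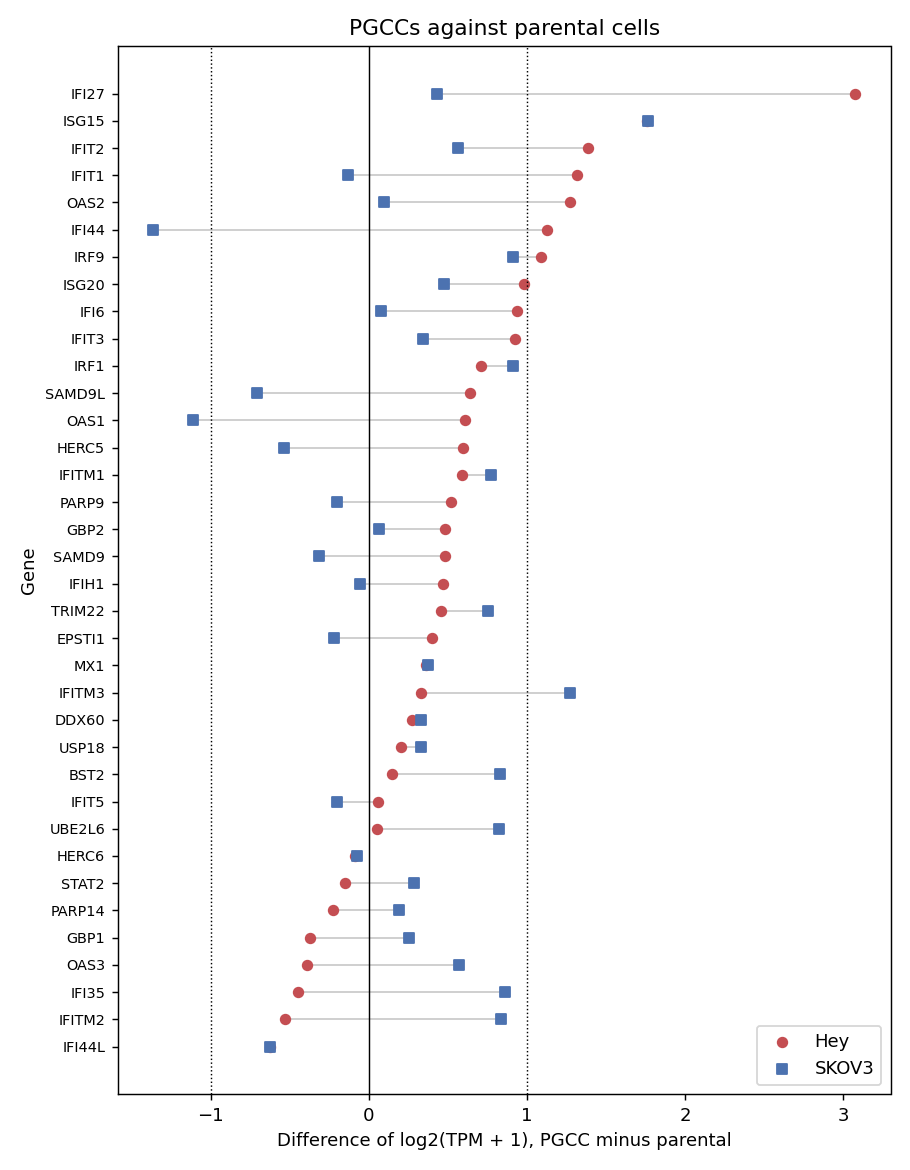
Difference of log2(TPM + 1) between PGCCs and parental cells for the 36 genes above the filter in Hey and in SKOV3. ISG15 lies beyond 2-fold in both lines (1.76 and 1.77), and IFI44 lies at 1.13 in Hey and -1.36 in SKOV3. Dotted lines mark 2-fold, and the SKOV3 square lies over the Hey circle where the values are close, as for ISG15, IFI44L, MX1 and HERC6.

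Across the lines, 1 gene (ISG15) was called higher in PGCCs of both, against 0.834% of rows, and 0 were lower in both, against 0.834% of rows. The SKOV3 call of ISG15, and with it the shared call, ended when the GC and length trend was removed. IFI44 was called in opposite directions, and the share of all rows with opposite calls was not counted. limma was fitted on all rows with state and cell line as terms, which leaves 2 residual degrees of freedom, so its spread is the disagreement between the lines. It called 0 of the 36 genes for PGCCs against parental cells at an adjusted p (limma, Benjamini-Hochberg) under 0.05, where it called 0.02% of all rows. At an unadjusted p under 0.05 there were 2, IFI27 and ISG15, and ISG15 gave 1.76 with an SE of 0.42 and a limma adjusted p of 1. The other limma settings run for this contrast also called 0 of the genes.

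Daughter cells were compared with parental cells to ask which ISG levels differed 30 days after the drug. The counts of the lines were unlike. In SKOV3 16 of the 36 genes were higher in daughter cells, against 15.1% of all rows, and 3 were lower, against 6.34% of all rows. The median difference was 0.71 against 0.15 for all rows. In Hey 1 gene was higher, against 6.31% of rows, and 4 were lower, against 3.73% of rows, with a median of -0.10 against 0.05. After quantile normalization that median was -0.22, and with mitochondrial genes left out it was -0.05. Whether the 2 lines differ in this was not tested, as each has 1 library per state.

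Among the sensors, IFIH1 (MDA5), which detects long double-stranded RNA, was at 4.11 TPM in SKOV3 before treatment, 3.92 TPM in PGCCs and 29.0 TPM in daughter cells, a difference of 2.55 from parental cells. In Hey it was at 5.28, 7.70 and 2.20 TPM, and the daughter difference was -0.97. The IFI family was led by IFI35, at 8.77 TPM in SKOV3 parental cells and 69.8 TPM in daughter cells, a difference of 2.86, the highest of the 36. USP18 removes ISG15 from its targets and restrains the interferon receptor. It was at 1.87 TPM in SKOV3 parental and 14.8 TPM in daughter cells, a difference of 2.46, against 1.65 and 1.66 TPM in Hey. UBE2L6, the conjugating enzyme for ISG15, was at 33.6 and 117 TPM in SKOV3, a difference of 1.77, and ISG15 itself was at 4.19 and 5.28 TPM.

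IRF9 stood at 0.33 TPM in SKOV3 parental cells and 4.03 TPM in daughter cells, a difference of 1.92. MX1, a dynamin-like GTPase that traps viral components, was at 0.96 and 6.62 TPM (1.96), and it passed the level filter through this library alone. GBP1, a guanylate-binding protein, was at 3.50 and 19.2 TPM (2.17). Of the OAS genes, OAS1 was at 5.69 and 13.4 TPM (1.11), OAS2 at 1.34 and 5.37 TPM (1.45) and OAS3 at 16.7 and 52.2 TPM (1.59). ISG20, an exonuclease, was at 0.62 and 4.60 TPM (1.79), and IFIT2 at 1.98 and 8.06 TPM (1.61). TRIM22, a ubiquitin ligase, was at 1.56 and 7.15 TPM (1.67), while DDX60, SAMD9L and PARP14 differed by 1.22, 1.37 and 1.23. OAS1 was inside the threshold after median-ratio scaling (0.90), quantile normalization (0.77) and removal of the GC trend (0.88). So were DDX60 after quantile normalization (0.93) and PARP14 after removal of the GC trend (0.96).

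The 3 genes lower in SKOV3 daughter cells were IFITM1, IFI27 and IFITM2. IFITM1 was at 26.7 TPM in the parental library, 46.4 TPM in PGCCs and 0.35 TPM in daughter cells, a difference of -4.36 from parental cells. IFI27 was at 14.8, 20.3 and 1.84 TPM, a difference of -2.47. IFITM2 was at 265, 474 and 124 TPM, a difference of -1.08, which was -0.99 with mitochondrial genes left out. IFITM1, IFITM2 and IFITM3 are near copies on 1 stretch of chromosome 11, so their share of common reads is uncertain.

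In Hey daughter cells, SAMD9, which restricts poxviruses, was higher, with 15.5 TPM in parental and 35.5 TPM in daughter cells, a difference of 1.14. IFI44L was at 13.5 TPM in parental and 0.026 TPM in daughter cells, a difference of -3.82. Its SKOV3 levels were 0.81 and 0.17 TPM and, in daughter cells, listed at 0. IFI44 was at 14.3 and 5.76 TPM in Hey (-1.18). HERC5, the ligase for ISG15, was at 2.07 and 0.38 TPM (-1.15), and GBP2 at 2.20 and 0.51 TPM (-1.09). In SKOV3 HERC5 was at 55 and 65.2 TPM and GBP2 at 2.18 and 1.96 TPM.

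**Figure D3:**
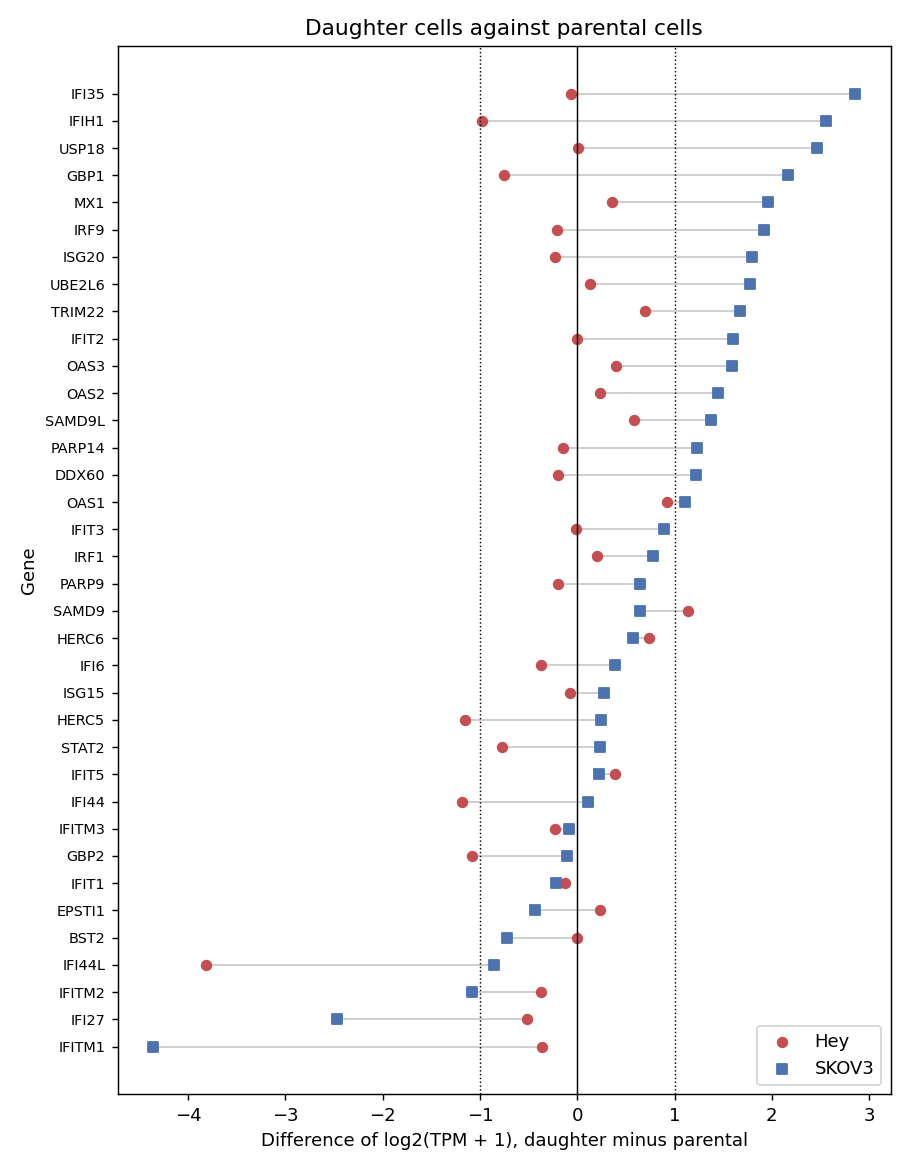
Difference of log2(TPM + 1) between daughter and parental cells for the 36 genes above the filter in each line. In SKOV3 16 genes lie at 2-fold or more above parental cells and 3 below, and in Hey 1 lies above and 4 below.

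Of the 36 genes 0 were called in the same direction in daughter cells of both lines, where 1.19% of rows were higher in both and 0.387% lower in both. limma called 0 of the 36 genes for daughter against parental cells at an adjusted p under 0.05 and 0.0133% of all rows. At an unadjusted p under 0.05 there were 3: IFI44L, IFITM1 and TRIM22.

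Daughter cells were also compared with the PGCC library of their line. The PGCC library enters both this comparison and that with parental cells, so the values are given side by side and no overlap between them is counted as a result. In Hey 0 of the 36 genes were higher in daughter cells, against 9.95% of rows, and 13 were lower, against 8.13% of rows. Their median was -0.53, against 0.03 for all rows. In SKOV3 14 were higher, against 14.6% of rows, and 6 were lower, against 9.25% of rows, with a median of 0.87 against 0.12.

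IFI27 was at 14.3 TPM in Hey PGCCs and 0.27 TPM in Hey daughter cells (-3.59), and at 20.3 and 1.84 TPM in SKOV3 (-2.91). ISG15 was at 14.8 and 3.44 TPM in Hey (-1.83) and at 16.7 and 5.28 TPM in SKOV3 (-1.49). They were the 2 genes lower in daughter cells of both lines, against 1.07% of rows, while 1.21% of rows were higher in both and 0 of the 36 genes were. With the GC trend removed the SKOV3 value of ISG15 was -0.93. Under that setting 10 genes were higher and 4 lower in SKOV3 daughter cells than in PGCCs, against 9.87% and 8.05% of rows. BST2 (tetherin), which holds budding virus at the membrane, was at 108 TPM in SKOV3 PGCCs and 36.2 TPM in daughter cells (-1.55), and IFITM3 at 1352 and 528 TPM (-1.35). IFITM1 gave -5.13 there and IFITM2 gave -1.92, from the levels given above.

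Hey daughter cells held the lowest of the 6 levels for 14 of the 36 genes, against 16.9% of rows. A tie was credited to the library listed first, with Hey parental cells before Hey daughter cells. Both figures therefore leave out ties with Hey parental cells, such as BST2, listed at 0 in both. IFI44L was at 8.39 TPM in Hey PGCCs and 0.026 TPM in daughter cells (-3.19). HERC5 was at 3.63 and 0.38 TPM (-1.75), and GBP2 at 3.47 and 0.51 TPM (-1.57). IFI6, which limits apoptosis, was at 5.76 and 1.72 TPM (-1.31), while SKOV3 held 7.49, 7.96 and 10.1 TPM of it across the states. IFIT1 was at 3.35 and 0.60 TPM (-1.44).

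In SKOV3 the genes higher in daughter cells than in PGCCs were led by IFIH1, OAS1 (2.10 and 13.4 TPM, 2.22) and USP18 (2.61 and 14.8 TPM, 2.13). SAMD9L was at 3.90 TPM in PGCCs and 19.8 TPM in daughter cells (2.08), after 7.01 TPM in parental cells. IFI35 (16.7 and 69.8 TPM) differed by 2.0, GBP1 by 1.91 and MX1 by 1.58. MX1 passed the level filter through the SKOV3 daughter library alone. EPSTI1 was at 2.35 and 1.89 TPM (-0.21), and STAT2 at 22.1 and 21.2 TPM (-0.06).

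Of the genes with opposite calls, IFIH1 was widest, at -1.44 in Hey and 2.61 in SKOV3. The share of all rows with opposite calls in this comparison was not counted. IFI44 gave -2.31 and 1.48, IFIT2 gave -1.39 and 1.04, ISG20 gave -1.21 and 1.32, IRF9 gave -1.30 and 1.01, and OAS2 gave -1.04 and 1.35. Both calls held in every scaling and trend setting run for IFIH1 alone. In SKOV3, IFIT2 (0.89 and 0.83) and IRF9 (0.86 and 0.68) were inside the threshold after median-ratio scaling and quantile normalization, ISG20 (0.97) after quantile normalization, and IFIT2 (0.54) and IFI44 (0.92) after removal of the GC trend. In Hey, OAS2 (-0.92) was inside it after quantile normalization. After removal of the GC trend the median of the 36 genes in SKOV3 was 0.38. limma called 0 of the 36 genes for daughter cells against PGCCs at an adjusted p under 0.05 and 0% of all rows. At an unadjusted p under 0.05 there were 4, IFI27, IFITM1, IFITM3 and ISG15, and IFI27 gave -3.25 with an SE of 0.67 and a limma adjusted p of 0.83.

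**Figure D4:**
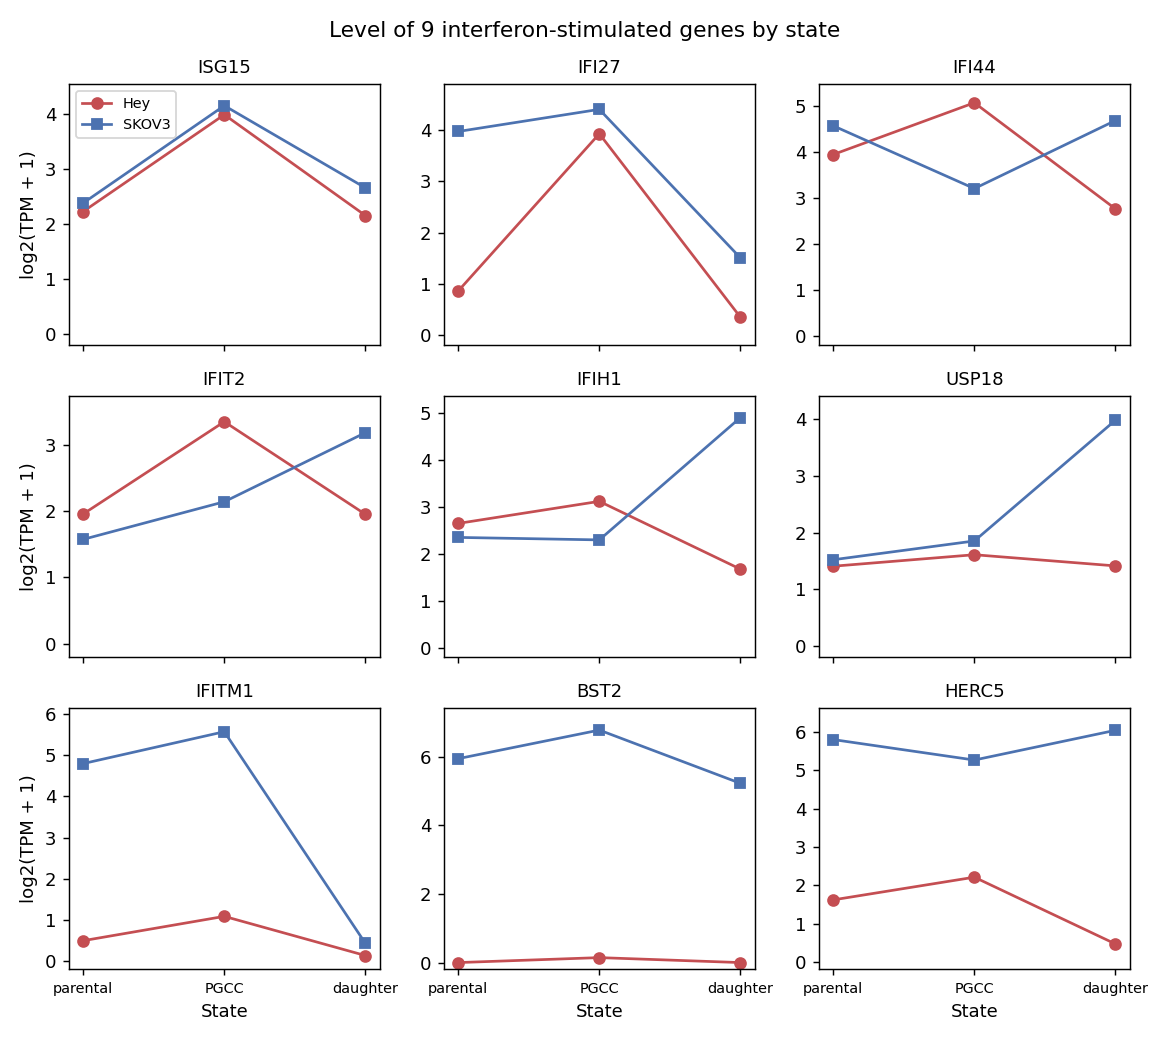
Levels of selected genes, as log2(TPM + 1), from parental cells through PGCCs to daughter cells of each line, with 1 library per point. ISG15 stands highest in PGCCs of both lines (14.8 and 16.7 TPM), whereas IFIH1 is at 2.20 TPM in Hey daughter cells and 29.0 TPM in SKOV3 daughter cells.

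SKOV3 daughter cells held the highest level of more ISGs than any other library. Of the 36 genes, 19 did (52.8%), against 30.4% of all rows. MX1 is among the 19 and passed the level filter through SKOV3 daughter cells alone, so its place there was fixed by the filter. Rows of the whole table that passed in this way were not counted. The SKOV3 PGCC library was highest for 7, Hey PGCCs for 5, Hey parental and Hey daughter cells for 2 each, and SKOV3 parental cells for 1.

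**Figure D5:**
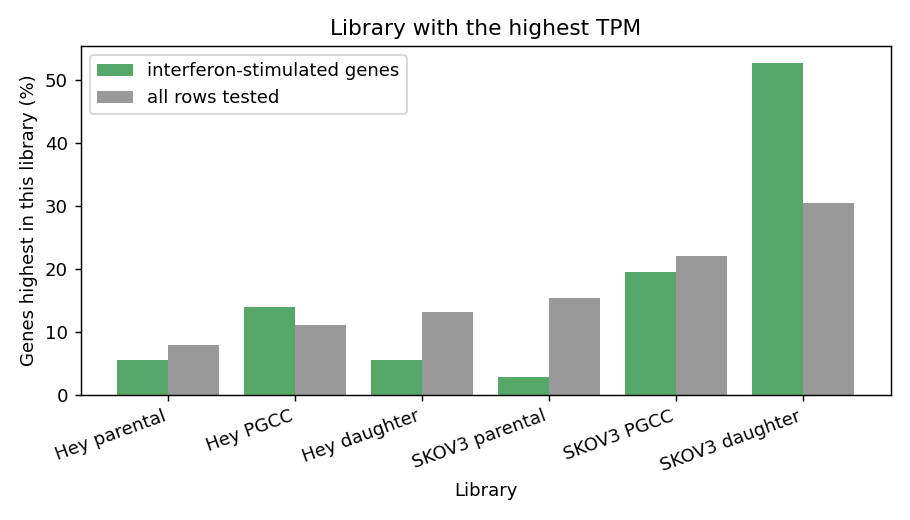
Share of the 36 genes, and of all rows, whose highest level is in each of the 6 libraries. SKOV3 daughter cells hold 52.8% of the genes and 30.4% of the rows. MX1, counted among these genes, passed the level filter through SKOV3 daughter cells alone.

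The lines were compared in the untreated state. In parental cells, 11 of the 36 genes (30.6%) were higher in SKOV3, against 24.2% of rows, and 4 (11.1%) were lower, against 11.5% of rows. Both shares were close to those of all rows. BST2 was listed at 0 in Hey parental and daughter cells and at 0.11 TPM in Hey PGCCs, while SKOV3 held 60.3, 108 and 36.2 TPM. HERC5 was at 2.07 TPM in Hey parental cells and 55 TPM in SKOV3 parental cells (4.19), and IFITM1 at 0.41 and 26.7 TPM (4.30). On the other side, TRIM22 was at 48.9 TPM in Hey and 1.56 TPM in SKOV3 parental cells (-4.29), and IRF9 at 7.46 and 0.33 TPM (-2.67). IFI44L (13.5 and 0.81 TPM) and GBP1 (14.1 and 3.50 TPM) were the other lower genes. Among the higher ones, OAS1 was at 0.97 TPM in Hey and 5.69 TPM in SKOV3 (1.76), HERC6 at 4.49 and 17.1 TPM (1.72) and EPSTI1 at 0.25 and 2.90 TPM (1.65). PARP9, which works with a ubiquitin ligase partner, was at 5.51 and 16.2 TPM (1.41).

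Over all libraries, 11 genes were higher in every SKOV3 library than in every Hey library, against 31.8% of rows. They were IFI6, IFITM3, MX1, OAS3, IRF1, HERC5, HERC6, BST2, PARP9, PARP14 and EPSTI1. IRF9 and TRIM22 were higher in every Hey library, against 12.8% of rows. limma, with the states as the repeats of a line, called 8 of the 36 genes higher in SKOV3 at an adjusted p under 0.05, where 14.4% of rows were higher, and 2 lower, where 6.27% of rows were lower. BST2 differed by 5.93 with an SE of 0.39 (limma adjusted p = 0.00024). HERC5 differed by 4.28 (SE 0.50, limma adjusted p = 0.0018), TRIM22 by -3.86 (SE 0.34, limma adjusted p = 0.00061) and IRF9 by -2.02 (SE 0.53, limma adjusted p = 0.035). Without the PGCC libraries the count was 0 and limma called no row.

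IRF1, a transcription factor induced mainly by interferon gamma, did not reach 2-fold against parental cells or PGCCs. In the order parental, PGCC and daughter its levels were 8.39, 14.3 and 9.81 TPM in Hey and 17.2, 33.3 and 30.2 TPM in SKOV3. Over the 6 libraries STAT2 ran from 13.2 to 23.3 TPM, IFIT5 from 7.49 to 12.0 TPM, DDX60 from 5.13 to 17.3 TPM, PARP9 from 4.68 to 26.0 TPM and PARP14 from 13.2 to 41.1 TPM. HERC6 ran from 4.18 to 25.9 TPM, UBE2L6 from 33.6 to 117 TPM, SAMD9 from 15.5 to 37.5 TPM and EPSTI1 from 0.25 to 2.90 TPM. For DDX60, PARP9, PARP14, HERC6, UBE2L6 and SAMD9 the highest of these was in SKOV3 daughter cells.

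The 6 genes below the level filter were MX2, OASL, IRF7, RSAD2, XAF1 and CMPK2, and their highest value was 3.40 TPM (CMPK2 in SKOV3 daughter cells). OASL was highest in Hey PGCCs at 1.59 TPM, and IRF7, a transcription factor that amplifies type I interferon, ran from 0 in SKOV3 daughter cells to 2.02 TPM in SKOV3 PGCCs. MX2 stayed at or under 0.16 TPM, RSAD2 (viperin) at or under 0.33 TPM and XAF1 at or under 0.57 TPM in the 6 libraries.

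Genes of the pathway outside the set were taken in 5 lists (ligands, receptors and kinases, sensors and adaptors, feedback, other ISGs), of which 47 genes passed the level filter. In Hey PGCCs 3 of the 47 were higher and 0 lower than in parental cells, against 7.67% and 5.22% of rows. In SKOV3 PGCCs 9 were higher and 2 lower, against 9.94% and 4.96% of rows. With the GC and length trend removed, 2.20% of rows were higher and 2.38% lower there. The pathway genes, here and below, were not recounted under that setting. Against parental cells 2 were higher and 2 lower in Hey daughter cells, where rows gave 6.31% and 3.73%. In SKOV3 daughter cells 13 were higher and 1 lower, where rows gave 15.1% and 6.34%. Daughter cells against PGCCs gave 0 higher and 3 lower in Hey, against 9.95% and 8.13% of rows, and 10 higher and 0 lower in SKOV3, against 14.6% and 9.25% of rows. The same shares of rows hold beside the calls of each list below.

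The ligands themselves were at or near 0. Of 21 interferon genes, 12 were listed at 0 in the 6 libraries, and none but IFNE exceeded 0.153 TPM. IFNE was listed at 0 in Hey and was at 4.44 TPM in SKOV3 parental cells, 0.99 TPM in PGCCs and 0.88 TPM in daughter cells (-1.45 and -1.53). Of 8 receptor and kinase genes above the filter, IFNAR1, a subunit of the type I receptor, was at 59.2 TPM in SKOV3 parental cells, 22.6 TPM in PGCCs and 69.7 TPM in daughter cells. It was the 1 gene called in that list for SKOV3 PGCCs (-1.35), and IFNGR1 was the 1 called for SKOV3 daughter against parental cells (1.25, at 84.4 and 203 TPM). In Hey 0 of the 8 were called in PGCCs or daughter cells against parental cells. Of all rows, 7.67% were higher and 5.22% lower in Hey PGCCs, and 6.31% and 3.73% in Hey daughter cells. SKOV3 daughter cells exceeded PGCCs in IFNGR1 (1.77), IFNAR1 (1.58) and IFNAR2 (1.24).

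Of 11 sensor and adaptor genes above the filter, DHX58 (1.28) and DDX58 (1.04) were higher in Hey PGCCs, and TICAM1 (1.49), IRF3 (1.23) and STING1 (1.12) in SKOV3 PGCCs. The GC trend was not removed from these SKOV3 PGCC values. DHX58 was at 0.79 TPM in SKOV3 parental and 9.63 TPM in daughter cells, and TLR3, a sensor of double-stranded RNA, at 1.70 and 10.8 TPM, differences of 2.57 and 2.13. STING1 (1.06) and IKBKE (1.05) were also higher in that comparison. In Hey daughter cells STING1, the adaptor of the DNA-sensing pathway, was lower than in parental cells (-1.04) and in PGCCs (-1.58). SKOV3 daughter cells exceeded PGCCs in TLR3 (1.95), DHX58 (1.85), DDX58 (1.28) and TBK1 (1.28). CGAS, the DNA sensor, was at 12.8 TPM in Hey parental cells and was listed at 0 in SKOV3 parental and daughter cells.

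Of 4 feedback genes above the filter, PTPN6 was higher in SKOV3 PGCCs (1.05) and PTPN2 in Hey daughter cells (1.04), both against parental cells. SOCS3, an inhibitor of JAK kinases, was lower in Hey daughter cells than in PGCCs (-1.36), at 2.78 and 8.69 TPM.

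Of 23 other interferon-stimulated genes above the filter, 8 were higher in SKOV3 daughter than parental cells and 0 were lower, against 15.1% and 6.34% of rows. The first 5 were APOL6 (2.36), LGALS3BP (1.85), PARP10 (1.70), HELZ2 (1.54) and TRIM21 (1.40). In SKOV3 PGCCs 5 of the 23 were higher, against 9.94% of rows, and they were PARP10 (1.86), LGALS3BP (1.83), HELZ2 (1.72), PML (1.36) and APOL1 (1.04). In Hey PGCCs 1 was, IFI30, at 0.94 TPM in parental cells and 11.3 TPM in PGCCs (2.66). In Hey daughter cells BATF2 was higher (1.10) and LGALS3BP lower (-1.02) than in parental cells, and IFI30 was lower than in PGCCs (-2.26). SKOV3 daughter cells exceeded PGCCs in APOL6 (2.08) and DTX3L (1.04). The GC trend was not removed from the SKOV3 PGCC values of this list.

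Between the parental libraries 9 of the 47 were higher in SKOV3, against 24.2% of rows, and 9 were lower, against 11.5% of rows. The higher genes were IFNE (2.44), IFNAR2 (1.57), IFNGR1 (1.05), MAVS (1.24), PTPN6 (1.98), PTPN2 (1.07), APOL1 (3.70), IFI30 (3.30) and APOL2 (1.99). Among the lower genes were CGAS, listed at 0 in SKOV3, IFI16 (-2.58), TLR3 (-1.44), LGALS3BP (-1.95) and BATF2 (-1.74). These lists were chosen with results known and got no test.

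The 6 epithelial markers summed to between 1035 and 3161 TPM, carried in Hey by KRT7, KRT8 and KRT18. In SKOV3, KRT19 was above KRT18 in parental cells (292 and 220 TPM) and PGCCs (711 and 420 TPM), though not in daughter cells. In Hey, EPCAM was at or under 1.43 TPM, KRT19 at or under 3.60 TPM and CDH1 at or under 0.028 TPM. In SKOV3 they ran from 8.15 to 68.8 TPM, from 80.2 to 711 TPM and from 1.47 to 8.35 TPM. All 7 leukocyte markers stayed at or under 0.81 TPM, and 2 were at 0 throughout. The 6 fibroblast markers summed to 28.2 TPM in SKOV3 daughter cells and 12.8 TPM in SKOV3 parental cells, and to between 0.21 and 3.61 TPM in Hey. In SKOV3 daughter against parental cells, COL1A1 (2.35 and 16.3 TPM) and PDGFRB (0.28 and 5.35 TPM) were higher, while LUM (8.84 and 5.56 TPM) and DCN (1.33 and 0.029 TPM) had lower levels. SKOV3 daughter cells were the library with the highest median ISG level, though not the highest summed TPM, and the part of these markers in the ISG levels was not tested. The endothelial list was carried by CDH5, at 33.2 to 48.5 TPM in Hey and at or under 2.56 TPM in SKOV3.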

How the data were processed

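The 6 conditions were sequenced as 1 library each. The submitters' processing notes name fastp, a read trimmer, Salmon 0.14.1, a transcript quantifier, and hg38. The authors assigned cleaned reads to human transcripts with Salmon and deposited TPM, 1 value per gene symbol and library. How transcripts were joined into symbols, the annotation release, strand and bias options are not given in the sources used here. TPM carries no read counts, so the depth per gene and the counting error are unknown.

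Differences of log2(TPM + 1) were taken between libraries, for rows with a mean of 1 TPM or more, and called at 2-fold. No p-value was given for 1 library against 1. limma 3.58.1 in R 4.3.3 used state and line as terms, with a trend and Benjamini-Hochberg adjustment, and 2 residual degrees of freedom. Python 3.11.15 with pandas 2.3.3 and statsmodels 0.14.6 did the rest. GC content and length came from GENCODE, and promoter windows from RefSeq (GRCh38.p14). All genes of the set are given as values or ranges, with those past 2-fold in any of 7 comparisons, at most 10 per direction, in full. Of the pathway lists, genes past 2-fold were named, at most 5 per list and comparison, and 1 gene is not reported here. The genes and lists were chosen with earlier results of these data known. Alternatives were a pseudocount of 0.1, no filter or a mean of 5 TPM, median-ratio scaling, quantile normalization, mitochondrial genes left out, 1.5-fold and 3-fold thresholds, a removed GC and length trend (lowess fraction 0.3, 2 passes), and limma settings. The steps were tested on simulated data.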

Additional observations from a re-analysis of the deposited data

Results flagged for a closer look

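Genes called at 2-fold in opposite directions in the 2 lines, with 1 library per condition, are given here, and the difference between the lines was not tested for any of them. The share of all rows with opposite calls was not counted, so whether these genes exceed it is unknown. IFI44 differed between PGCCs and parental cells by 1.13 in Hey and by -1.36 in SKOV3. Between daughter cells and PGCCs, IFIT2 differed by -1.39 in Hey and by 1.04 in SKOV3, IFI44 by -2.31 and 1.48, and ISG20 by -1.21 and 1.32. OAS2 differed by -1.04 and 1.35, IRF9 by -1.30 and 1.01, and IFIH1 by -1.44 and 2.61. With the GC and length trend removed, IFI44 gave -0.80 for SKOV3 PGCCs and 0.92 for SKOV3 daughter cells against PGCCs, and IFIT2 gave 0.54, while IFIH1 gave 2.03. In daughter cells against PGCCs, quantile normalization gave -0.92 for OAS2 in Hey, and in SKOV3 it gave 0.68 for IRF9, 0.97 for ISG20 and 0.83 for IFIT2. Median-ratio scaling gave 0.86 for IRF9 and 0.89 for IFIT2 in SKOV3. All of these are inside 2-fold, so the opposite calls of IFIT2, IFI44, ISG20, OAS2 and IRF9 each ended under at least 1 setting.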

How the results depend on the processing

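Counts and medians were labelled only as the same or moved, so no reversal could be recorded for them. No called gene difference reversed under the alternatives run, and differences inside the threshold were not recomputed. Of these differences, 550 values of single genes kept their side of the threshold while 31 did not. The filter settings (no filter, a mean of 5 TPM) do not alter a gene's value, so its side was fixed in advance there. Those values are among the 550 and say nothing about stability. The counts below are of the 36 genes, higher or lower by 2-fold unless another fold is named. For Hey PGCCs against parental cells, 7 higher became 12 with a pseudocount of 0.1, 4 with a mean of 5 TPM, 15 at 1.5-fold (1 lower) and 2 at 3-fold. For SKOV3 PGCCs, 2 higher and 2 lower became 4 higher with a pseudocount of 0.1, 1 lower with a mean of 5 TPM, 10 and 4 at 1.5-fold, 1 and 0 at 3-fold, and 1 and 1 with the GC and length trend removed. For Hey daughter against parental cells, 1 higher and 4 lower became 2 and 7 with a pseudocount of 0.1, 2 lower with a mean of 5 TPM, 0 higher with quantile normalization, 5 and 7 at 1.5-fold, and 0 and 1 at 3-fold. For SKOV3 daughter against parental cells, 16 higher became 10 with a mean of 5 TPM, and 3 lower became 5 at 1.5-fold. For Hey daughter cells against PGCCs, 13 lower became 7 with a mean of 5 TPM and 5 at 3-fold, and 0 higher became 3 at 1.5-fold. For SKOV3 daughter cells against PGCCs, 14 higher became 8 with a mean of 5 TPM, 9 with quantile normalization and 6 at 3-fold, and 6 lower became 3 at 3-fold. With the GC and length trend removed this comparison had 10 higher and 4 lower. For SKOV3 against Hey parental cells, 11 higher became 17 at 1.5-fold and 7 at 3-fold. Leaving out the libraries of 1 state at a time gave 0 to 6 genes by limma for SKOV3 against Hey, where all libraries gave 10. It gave 0 without the PGCC libraries, 4 without the parental and 6 without the daughter libraries. Of the 14988 rows, limma called 0, 970 and 2224 in these fits, and 3093 with all libraries. The share of all rows called moved with the setting. For Hey PGCCs the rows higher were 13.9% with a pseudocount of 0.1, 5.26% with a mean of 5 TPM, 17.1% at 1.5-fold and 2.95% at 3-fold. For SKOV3 PGCCs they were 14.0%, 9.50%, 22.9% and 2.01%, and 2.20% with the GC and length trend removed. For Hey daughter against parental cells, the rows higher and lower were 10.9% and 6.84% with a pseudocount of 0.1. They were 17.2% and 10.7% at 1.5-fold, and 2.21% and 1.19% at 3-fold. With a mean of 5 TPM 3.345% were lower, and with quantile normalization 4.64% were higher. For Hey daughter cells against PGCCs the rows lower were 6.46% with a mean of 5 TPM and 3.47% at 3-fold. At 1.5-fold 22.0% of rows were higher there. For SKOV3 daughter cells the rows higher were 11.5% against parental cells and 12.1% against PGCCs with a mean of 5 TPM. Against PGCCs they were 11.65% with quantile normalization and 6.22% at 3-fold, where 3.71% were lower. Against parental cells 13.6% of rows were lower at 1.5-fold. For SKOV3 against Hey parental cells the rows higher were 38.1% at 1.5-fold and 12.6% at 3-fold. Of the medians over the genes, 20 moved. That of SKOV3 against Hey parental cells, 0.52, was 0.30 after median-ratio scaling, 0.16 after quantile normalization and 0.26 with the GC trend removed, and that of SKOV3 PGCCs, 0.31, was 0.17 after quantile normalization. With a mean of 5 TPM 26 of the 36 genes were left to count. For the other changes the cause was not tested. The cell line term of limma pairs the states within a line, and without it 0 of the 36 genes were called for any state comparison, as with it. The depth per gene is unknown, so low values such as those of MX2 or RSAD2 cannot be given an interval.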

Other observations

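ISGs that lie next to each other in the genome differed unequally. Of the SAMD9 pair, SAMD9 differed between Hey daughter and parental cells by 1.14 and SAMD9L by 0.59, and in SKOV3 by 0.64 and 1.37. In the IFIT cluster of SKOV3 daughter cells, IFIT2 differed from parental cells by 1.61, IFIT3 by 0.89, IFIT5 by 0.22 and IFIT1 by -0.22. In the OAS cluster OAS1, OAS2 and OAS3 were all called higher there, whereas in Hey PGCCs OAS2 differed by 1.27, OAS1 by 0.61 and OAS3 by -0.39. GBP1 and GBP2 differed by 2.17 and -0.11 in SKOV3 daughter cells.

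Promoter letters did not divide the genes called in SKOV3 daughter against parental cells in one way. Of 21 genes with the ISRE letters in their window, 7 were higher and 2 were lower, with a median of 0.28. Of 9 genes with a window but without those letters, 5 were higher and 0 were lower, with a median of 1.11. Of all rows, 15.1% were higher and 6.34% lower, with a median of 0.15. In Hey daughter cells against PGCCs, 9 of the 21 and 1 of the 9 were lower, against 8.13% of rows. These counts are descriptions of small groups, and no test was made.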
